A study of Mus musculus with 24 samples.

Results

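The lipogenesis genes under SREBP1c were followed in the livers of mice that had received extracellular vesicles (EVs, membrane particles that cells release). The rule took the rows of the count table with 10 gene symbols of de novo fatty acid synthesis: Srebf1, Fasn, Acaca, Acacb, Acly, Scd1, Elovl6, Thrsp, Me1 and Pnpla3. All 10 were found among 23240 rows, and all 10 were among the 13773 genes that passed the filter on low counts.

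All mice were female NSG mice (NOD scid gamma, an immunodeficient strain with no allele other than the strain background given in the labels), aged 8 weeks. Each received tail-vein injections 2 times a week for 5 weeks, of about 10 µg EV or of phosphate-buffered saline (PBS), and liver RNA was taken 2 days after the last one. The 4 groups of 6 libraries were EVs of MCF10A, a non-tumorigenic human breast epithelial cell line (MCF10A EV), EVs labelled MCF10A/miR-122 (MCF10A/miR-122 EV), EVs of the line MDA-MB-231, a human breast cancer cell line (MDA-MB-231 EV), and PBS without EVs. The labels do not say how miR-122, a liver microRNA, was added, whether EV preparations were pooled, or that each library is 1 mouse, so p-values measure the spread between libraries.

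SREBP1c is made from Srebf1 as a membrane-bound precursor that Insig proteins hold in the endoplasmic reticulum and that Scap escorts to the Golgi, where a pair of proteases releases the transcription factor. In liver, insulin and the oxysterol receptor LXR raise it, and it is known to activate genes that turn citrate into fatty acids. The enzymes act in order: Acly makes cytosolic acetyl-CoA, Acaca makes malonyl-CoA for synthesis and Acacb makes it at the mitochondrion, Fasn builds palmitate, and Elovl6 and Scd1 lengthen and desaturate it. Me1 supplies NADPH, Thrsp (Spot 14) is a small nuclear and cytosolic protein that promotes lipogenesis, and Pnpla3 is a lipid droplet protein.

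Libraries had 21.3 to 33.7 M counts (M, mega), and the members had between 63 counts (Pnpla3) and 246205 counts (Scd1) in a library. The 6 hepatocyte markers summed to 102736 to 150215 CPM (the count relative to the library's scaled total), none at 0, whereas the 6 adipocyte markers, of a tissue that shares this gene program, summed to 3.08 to 7.95 CPM with overlapping ranges in the 4 groups. For 2 of the groups the library names give each the identity of the other: libraries labelled MCF10A/miR-122 EV carry a name of MDA-MB-231 exosomes, and those labelled MDA-MB-231 EV a name of miR-122. Groups are called by their label. The 12 libraries of these groups also stand apart from those given PBS or EVs of plain MCF10A: the serpin gene Serpina3a ranged over 0.285 to 5.85 CPM in them and over 109 to 325 CPM in the other 12. Their totals were 26.8 to 33.7 M counts, against 21.3 to 29.3 M. No treatment was in both sets of 12, so in each comparison between sets, what belongs to the set and what to the EVs cannot be told apart.

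The 250 bases upstream of annotated starts are shown for a selection of the members. SREBP1 is known to act there together with NF-Y, the factor that binds CCAAT boxes. The sequences are from RefSeq on GRCm38.p6, a later build than the mm9 of the deposited counts, 5′ to 3′ on the strand of the gene. Capitals mark CCAAT or its reverse complement ATTGG. For Thrsp, 25 bases around each of its matches are shown, since a GENCODE transcript of the gene covers most of its window.
Thrsp, match 79 bases upstream (chr7:97417615-97417639, minus strand): aaacgctgggATTGGctcaaaacag
Thrsp, match 52 bases upstream (chr7:97417588-97417612, minus strand): ctgtgttgctCCAATggttgggctt
Fasn (chr11:120824548-120824797, minus strand): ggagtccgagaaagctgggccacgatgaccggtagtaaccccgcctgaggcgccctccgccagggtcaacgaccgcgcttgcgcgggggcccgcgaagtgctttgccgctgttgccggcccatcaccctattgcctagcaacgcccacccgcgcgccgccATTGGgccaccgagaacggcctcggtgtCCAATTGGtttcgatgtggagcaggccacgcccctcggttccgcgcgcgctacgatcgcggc
Srebf1, most upstream start (chr11:60222582-60222831, minus strand): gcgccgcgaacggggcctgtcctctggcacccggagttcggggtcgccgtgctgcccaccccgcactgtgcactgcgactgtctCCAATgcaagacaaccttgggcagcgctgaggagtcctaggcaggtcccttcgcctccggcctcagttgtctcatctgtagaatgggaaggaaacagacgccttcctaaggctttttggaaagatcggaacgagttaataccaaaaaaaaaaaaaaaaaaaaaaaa
Srebf1, most downstream start (chr11:60210472-60210721, minus strand): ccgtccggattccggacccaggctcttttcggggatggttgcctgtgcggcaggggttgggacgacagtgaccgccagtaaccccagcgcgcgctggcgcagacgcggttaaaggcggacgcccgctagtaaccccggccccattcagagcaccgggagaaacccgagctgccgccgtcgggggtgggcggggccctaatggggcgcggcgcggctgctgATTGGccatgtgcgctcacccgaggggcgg
Pnpla3 (chr15:84167566-84167815, plus strand): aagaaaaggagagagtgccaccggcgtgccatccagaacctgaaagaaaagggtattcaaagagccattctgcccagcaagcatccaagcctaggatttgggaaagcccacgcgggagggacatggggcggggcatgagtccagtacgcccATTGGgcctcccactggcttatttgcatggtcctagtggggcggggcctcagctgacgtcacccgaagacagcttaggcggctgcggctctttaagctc
Acly (chr11:100528001-100528250, minus strand): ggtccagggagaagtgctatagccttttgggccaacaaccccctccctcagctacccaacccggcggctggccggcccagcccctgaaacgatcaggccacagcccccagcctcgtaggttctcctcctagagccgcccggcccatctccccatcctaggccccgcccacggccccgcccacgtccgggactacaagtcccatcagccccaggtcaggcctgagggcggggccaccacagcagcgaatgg

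RefSeq gave 12 windows for 9 members, and Scd1 had no entry. CCAAT, searched on both strands, was in 7 of 12 windows and in 6 of 9 genes, against 33.8% of 32851 windows of the same length. Fasn holds 3 matches within 90 bases of its start, 2 of them back to back in the capitals CCAATTGG, which share 2 bases. Thrsp holds a pair, at 79 and 52 bases upstream, and Acly, shown for contrast, holds none. Of the windows not shown, those of Acaca, Elovl6, the middle Srebf1 start and the first Me1 start hold none. Those of Acacb and the second Me1 start hold 1 match each. The GC box GGGCGG was in 5 of 12 windows against 32.7% of all, with 4 matches in Acly. TATAAA was in 1 window (Acacb) against 12.4% of all. The sterol element form TCACNCCAC and the E-box CACGTG were in 0 of 12 windows, against 1.05% and 6.02% of all. Such matches describe letters in these windows and are not binding sites.

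Thrsp stood highest above PBS among the members and rose in both the MCF10A/miR-122 EV and the MDA-MB-231 EV livers. Its level was 470.3, 542, 314, 797, 573 and 629 CPM in the MCF10A/miR-122 EV libraries and 344, 709, 222, 598, 465 and 194 CPM in the MDA-MB-231 EV libraries. It was 112, 187, 44.0, 195, 206 and 110.2 CPM in the MCF10A EV libraries, and 98.5, 97.6, 142, 254, 139.7 and 75.2 CPM in the PBS libraries. The MCF10A/miR-122 EV libraries all lay above every MCF10A EV and PBS library. The MDA-MB-231 EV libraries overlapped with PBS through replicates 3 and 6, which lay below the highest PBS library, and with MCF10A EV through replicate 6 alone.

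**Figure D1:**
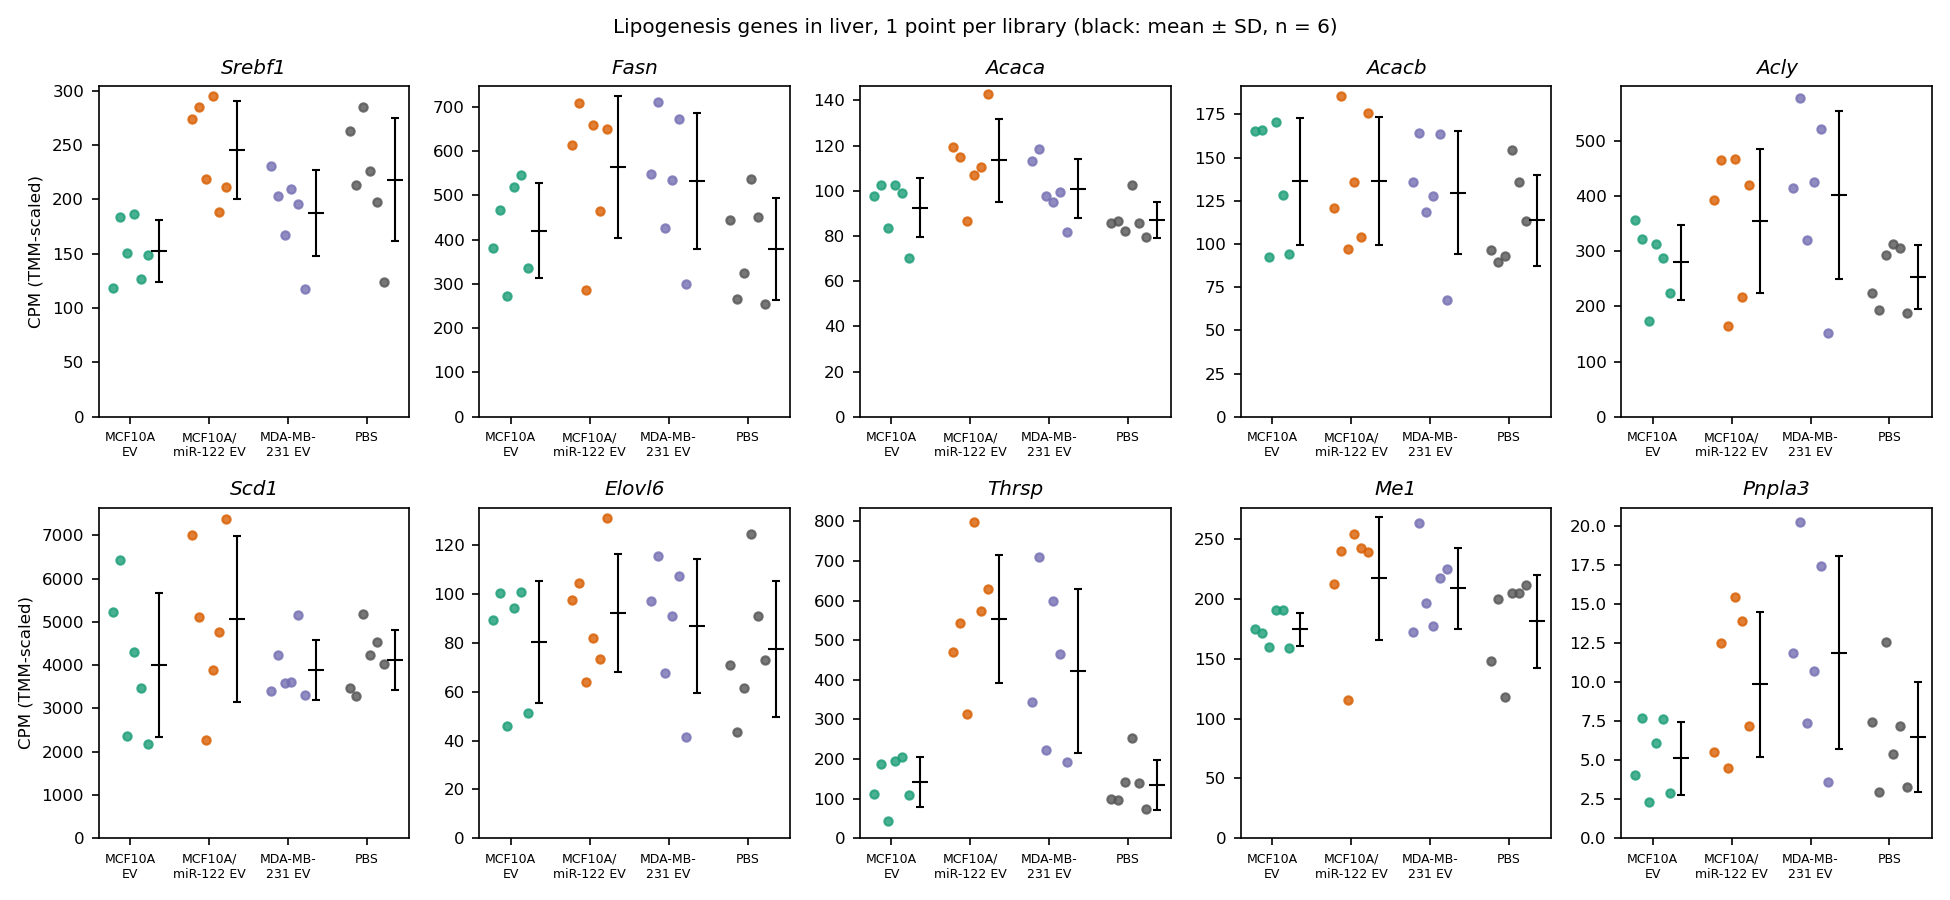
Level of each of the 10 genes (CPM on TMM-scaled library sizes, linear axis from 0) in each of 24 liver libraries, 6 per group, with the mean and SD in black. Thrsp is the panel in which the MCF10A/miR-122 EV points (314 to 797 CPM) clear all MCF10A EV and PBS points, and most MDA-MB-231 EV points do.

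The mean Thrsp level was 554 ± 161 CPM in MCF10A/miR-122 EV livers and 134 ± 63.9 CPM in PBS livers (SD, n = 6 each). This is a 4.12-fold difference, or a log2 fold change of 2.04 (SE 0.36), with an adjusted p of 3.71e-04 by edgeR's quasi-likelihood test. In MDA-MB-231 EV livers Thrsp averaged 422 ± 207 CPM, 3.14-fold above PBS (log2 fold change 1.65, SE 0.35, edgeR adjusted p = 0.00361). Against MCF10A EV (142 ± 64.0 CPM, SD) the log2 fold changes were 1.96 for MCF10A/miR-122 EV (edgeR adjusted p = 5.37e-04) and 1.57 for MDA-MB-231 EV (edgeR adjusted p = 0.00681). These 4 calls all cross the 2 sets of libraries. Within the sets, the log2 fold change was 0.08 for MCF10A EV over PBS (95% interval -0.64 to 0.80) and -0.39 for MDA-MB-231 EV set against MCF10A/miR-122 EV (95% interval -1.11 to 0.33), and neither passed the threshold.

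Across the members, 2 of 10 were called in MCF10A/miR-122 EV over PBS (Thrsp and Acaca, both higher), when 17.9% of all genes tested were called in that comparison. Of the 10, 1 was called in MDA-MB-231 EV over PBS (Thrsp), against 11.7% of all genes, and in MCF10A EV over PBS 0 of 10 by edgeR, against 1.07%. At an unadjusted p under 0.05 there was 1 such member in MCF10A EV over PBS, Srebf1, against 2383 of the 13773 genes tested. DESeq2 and limma-voom also called 0 of 10 there. Against MCF10A EV, 2 of 10 were called in MCF10A/miR-122 EV (Thrsp and Srebf1; 16.2% of all genes) and 1 of 10 in MDA-MB-231 EV (Thrsp; 7.68%). Over the runs with 1 library left out, 1 to 4 of 10 members were called in MCF10A/miR-122 EV over PBS, against 1821 to 2613 of all genes. In MCF10A/miR-122 EV over MCF10A EV 2 to 4 of 10 were called, against 1653 to 2575 of all genes. Both counts of 4 came without MCF10A/miR-122 EV replicate 3. That library was lowest of its group in 9 of 10 members, so leaving it out raises those group means. MDA-MB-231 EV set against MCF10A/miR-122 EV gave 0 of 10 by edgeR and by DESeq2, against 0.254% of all genes by edgeR. At an unadjusted p under 0.05 it gave 1 (Srebf1), against 1128 of the 13773 genes tested.

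The direction was more uniform than the calls. All 10 members had positive log2 fold changes in MCF10A/miR-122 EV over PBS, with a median of 0.34, against 0.00 over all genes tested. The median was 0.21 in MDA-MB-231 EV over PBS, with 8 of 10 positive, and 0.07 in MCF10A EV over PBS, with 6 of 10 positive. These 3 comparisons share the PBS libraries. Those against MCF10A EV share its libraries too, and their medians were 0.34 for MCF10A/miR-122 EV and 0.28 for MDA-MB-231 EV. Within groups the members also varied together (median Pearson correlation of pairs 0.60), so their directions are not separate observations. Only 1 member in MCF10A/miR-122 EV over PBS (Thrsp) had groups that did not overlap, when 5.88% of all genes had none.

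**Figure D2:**
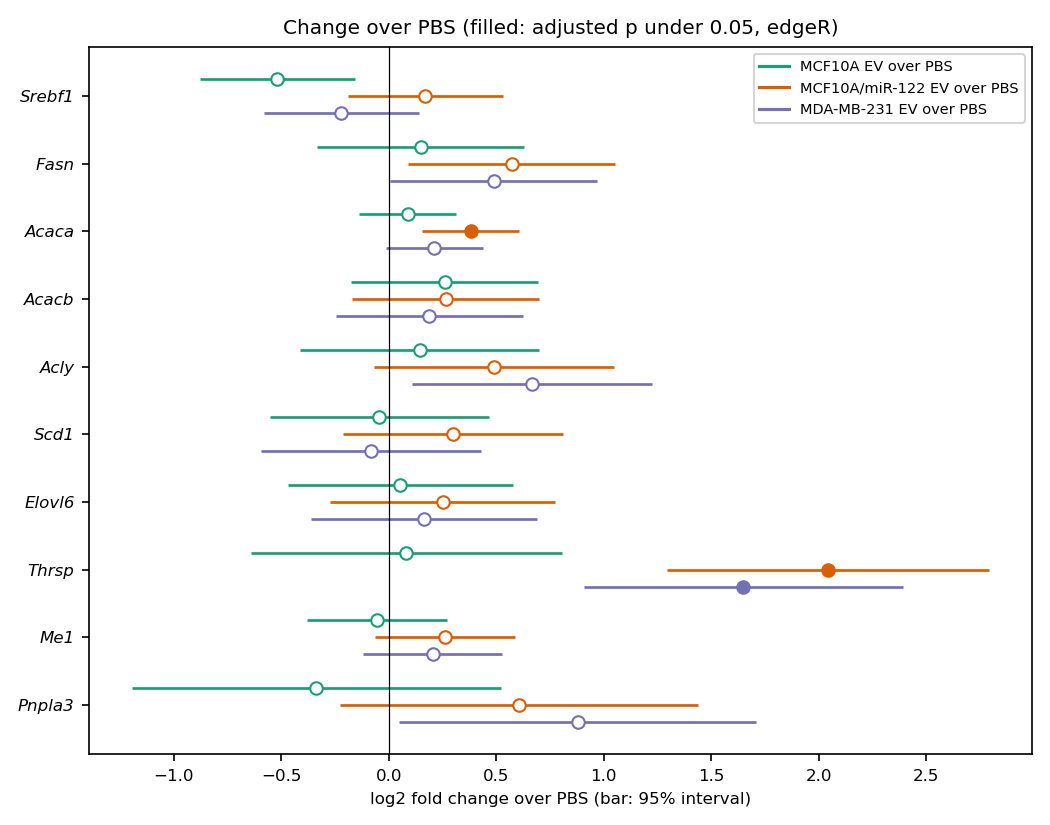
Log2 fold change of each gene over PBS (x axis) in the livers of the 3 EV groups, with 95% intervals as bars and filled points for an adjusted p under 0.05. Thrsp lies at 2.04 and 1.65 in the last 2 groups, and the other members lie between -0.52 and 0.88.

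Srebf1, the gene of the regulator itself, did not follow Thrsp. Its lowest, median and highest levels were 118, 149 and 187 CPM in MCF10A EV livers and 188, 247 and 296 CPM in MCF10A/miR-122 EV livers. They were 118, 199.5 and 230.9 CPM in MDA-MB-231 EV livers and 124, 219.7 and 285 CPM in PBS livers. The 6 MCF10A EV libraries lay below the PBS median but overlapped with the PBS libraries, and below every MCF10A/miR-122 EV library. Means were in the order MCF10A/miR-122 EV (246 ± 44.8 CPM), PBS (218 ± 56.3 CPM), MDA-MB-231 EV (187 ± 39.9 CPM) and MCF10A EV (153 ± 28.2 CPM; SD, n = 6 each). No pair of neighbours in that order passed the test.

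Srebf1 rose in MCF10A/miR-122 EV over MCF10A EV livers, by 0.69 on the log2 scale (SE 0.17, edgeR adjusted p = 0.00816). The groups did not overlap, as for 2 of 10 members and 5.63% of all genes. Over PBS, the value was -0.52 in MCF10A EV livers (95% interval -0.88 to -0.16, edgeR adjusted p = 0.134), within 1 set of libraries. With 1 library left out that value was -0.65 to -0.44 (edgeR adjusted p = 0.0422 to 0.286). Only the run without PBS replicate 6, whose Srebf1 level was the lowest of its group at 124 CPM, passed. The Srebf1 log2 fold change was 0.17 in MCF10A/miR-122 EV over PBS (95% interval -0.19 to 0.53). It was -0.22 in MDA-MB-231 EV over PBS (95% interval -0.58 to 0.14). The count row is per gene, so the 1a and 1c transcripts of Srebf1 could not be separated.

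The enzymes that make malonyl-CoA and its precursors moved less. Acaca, acetyl-CoA carboxylase 1, had a lowest, median and highest level of 86.6, 113 and 143 CPM in MCF10A/miR-122 EV livers and of 79.5, 85.7 and 102 CPM in PBS livers. Its 6 MCF10A/miR-122 EV libraries all exceeded the PBS median, and replicate 3 lay within the PBS range. Acaca rose by 0.38 on the log2 scale (SE 0.11, edgeR adjusted p = 0.0159), but the adjusted p was 0.0612 without MCF10A/miR-122 EV replicate 6. Acaca shares 33.3% of its transcript 32-mers with other genes, mostly Gm5182, and an opposite-strand gene overlaps it, so its count is uncertain. Acaca had a log2 fold change of 0.21 in MDA-MB-231 EV over PBS (95% interval -0.01 to 0.44).

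Acacb, the mitochondrial carboxylase, was at 96.8, 128 and 186 CPM in MCF10A/miR-122 EV livers (lowest, median, highest), at 67.8, 132 and 164 CPM in MDA-MB-231 EV livers, at 92.5, 147 and 171 CPM in MCF10A EV livers and at 89.4, 105 and 154 CPM in PBS livers. The groups overlapped throughout, and the log2 fold changes over PBS were 0.26, 0.19 and 0.26 in that order of EV groups. Acly, ATP citrate lyase, averaged 354 ± 131 CPM in MCF10A/miR-122 EV, 401 ± 151 CPM in MDA-MB-231 EV, 279 ± 68.0 CPM in MCF10A EV and 253 ± 57.8 CPM in PBS livers (SD, n = 6 each). Its log2 fold change in MDA-MB-231 EV over PBS was 0.67 (95% interval 0.11 to 1.23, edgeR adjusted p = 0.105). With 1 library left out it was 0.53 to 0.84 (edgeR adjusted p = 0.0285 to 0.243). Only the run without MDA-MB-231 EV replicate 6, at 152 CPM the lowest of the group, passed.

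Me1, the cytosolic malic enzyme, was at 116, 239 and 254 CPM in MCF10A/miR-122 EV livers (lowest, median, highest) and at 118, 202 and 211 CPM in PBS livers. MCF10A/miR-122 EV replicate 3 was the low one, and the other 5 libraries lay above every PBS library. Over PBS the log2 fold change was 0.26 (edgeR adjusted p = 0.258). With 1 library left out it was 0.16 to 0.38 (edgeR adjusted p = 0.037 to 0.501), and only the run without that low replicate passed. Me1 shares 36.4% of its 32-mers with other genes, mostly Gm7049, and its count is uncertain in the same way.

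Fasn, the fatty acid synthase, was at 285, 632 and 709 CPM in MCF10A/miR-122 EV livers (lowest, median, highest), at 300.5, 541 and 711 CPM in MDA-MB-231 EV livers, at 273, 424 and 546 CPM in MCF10A EV livers and at 254, 385 and 536 CPM in PBS livers. In both of the first-named groups 5 of 6 libraries were above the PBS median, and the ranges overlapped. The log2 fold changes over PBS were 0.57 for MCF10A/miR-122 EV (95% interval 0.09 to 1.05, edgeR adjusted p = 0.088) and 0.49 for MDA-MB-231 EV (95% interval 0.01 to 0.97, edgeR adjusted p = 0.173). With 1 library left out, the first of these was 0.48 to 0.70 (edgeR adjusted p = 0.03 to 0.175). Only the run without MCF10A/miR-122 EV replicate 3, at 285 CPM the lowest of its group, passed. Leaving out the lowest library raises the mean of its group.

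The elongase Elovl6 and the desaturase Scd1 varied mainly within groups. Elovl6 averaged 92.2 ± 24.2 CPM in MCF10A/miR-122 EV, 86.8 ± 27.5 CPM in MDA-MB-231 EV, 80.5 ± 24.9 CPM in MCF10A EV and 77.5 ± 27.9 CPM in PBS livers. Its log2 fold changes over PBS were 0.25, 0.16 and 0.05 in that order, and all 3 95% intervals included 0. Scd1 spread from 2271 to 7380 CPM in MCF10A/miR-122 EV and from 2181 to 6430 CPM in MCF10A EV livers, but from 3306 to 5159 CPM in MDA-MB-231 EV and from 3293 to 5174 CPM in PBS livers. Its log2 fold changes over PBS were 0.30 (95% interval -0.21 to 0.81) for MCF10A/miR-122 EV, -0.08 for MDA-MB-231 EV and -0.04 for MCF10A EV.

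Pnpla3, the lipid droplet protein gene, had the lowest counts and the widest spread, with an SD of 45.9% to 54.4% of the mean in the 4 groups. It was at 4.53, 9.87 and 15.4 CPM in MCF10A/miR-122 EV livers (lowest, median, highest) and at 3.63, 11.3 and 20.3 CPM in MDA-MB-231 EV livers. Levels were 2.36, 5.07 and 7.70 CPM in MCF10A EV livers and 2.96, 6.32 and 12.5 CPM in PBS livers. In MDA-MB-231 EV over MCF10A EV the log2 fold change was 1.21 (95% interval 0.37 to 2.06, edgeR adjusted p = 0.0653). That value passed with DESeq2 (adjusted p = 0.0482) but not with limma-voom (adjusted p = 0.113). With 1 library left out it was 1.00 to 1.40 (edgeR adjusted p = 0.0298 to 0.158). Only the run without MDA-MB-231 EV replicate 6, at 3.63 CPM the lowest of its group, passed. Over PBS the log2 fold changes were 0.61 for MCF10A/miR-122 EV, 0.88 for MDA-MB-231 EV and -0.34 for MCF10A EV, none past the threshold.

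Thrsp was also set against its fellow members by the ratio of its count to that of each other member within a library, which does not depend on the library's scaling. Thrsp was picked for this because of its rise, so the ratios are a description and carry no test. The Thrsp to Fasn ratio was 0.767, 0.765, 1.10, 1.21, 1.23 and 0.968 in MCF10A/miR-122 EV libraries, and 0.627, 0.998, 0.521, 1.12, 0.692 and 0.645 in MDA-MB-231 EV libraries. In PBS libraries it was 0.221, 0.367, 0.438, 0.473, 0.310 and 0.297, below all 12 of those. Replicate 3 of MCF10A/miR-122 EV and replicate 6 of MDA-MB-231 EV, low for both genes, were not the lowest of their group in this ratio.

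In MCF10A/miR-122 EV over PBS the ratio of Thrsp to each of the other 9 members was higher, by 1.47 to 1.91 on the log2 scale. For MDA-MB-231 EV over PBS the 9 differences were 0.76 (Pnpla3) to 1.81. Over MCF10A EV they were 1.14 to 2.07 for MCF10A/miR-122 EV and 0.43 to 1.66 for MDA-MB-231 EV. Within the sets they were smaller, at -0.22 to 0.52 in MCF10A EV over PBS and at -0.71 to -0.10 in MDA-MB-231 EV set against MCF10A/miR-122 EV.

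**Figure D3:**
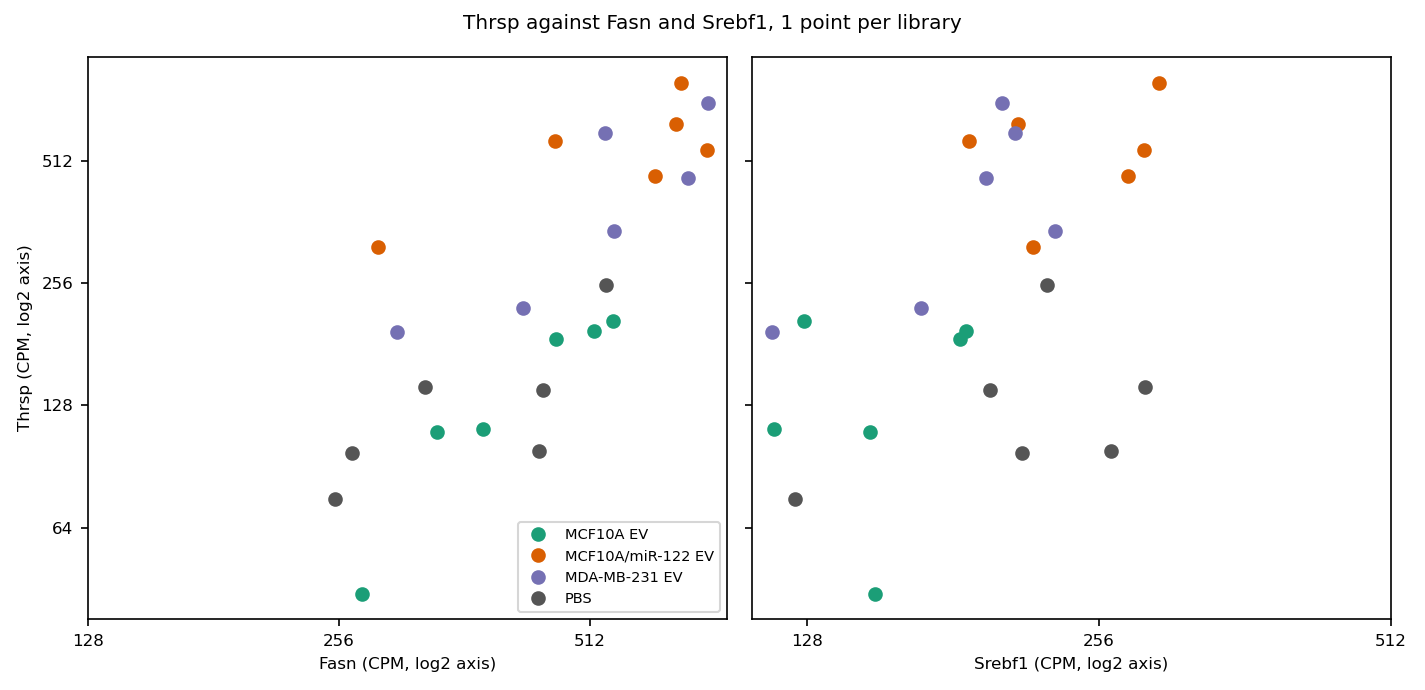
Thrsp level against Fasn level (left) and Srebf1 level (right) in the 24 libraries (CPM, both axes log2), coloured by group. At a like Fasn level, the MCF10A/miR-122 EV libraries and the MDA-MB-231 EV libraries lie above the MCF10A EV and PBS libraries, with Thrsp to Fasn ratios of at least 0.521 against at most 0.473.

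Within groups, the enzyme genes rose and fell together from library to library, and Srebf1 and Me1 did so less. As deviations of log2 CPM from the group means over 24 libraries, the 45 pairs of members had Pearson correlations of -0.26 to 0.91, with a median of 0.60. The highest were Acacb with Elovl6 (0.91) and Fasn with Acly (0.88). The median over its 9 pairs was 0.76 for Elovl6, 0.75 for Fasn and 0.67 for Thrsp, but 0.32 for Srebf1 and 0.34 for Me1. The points of these descriptions share library and depth, and no p is attached to them.

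**Figure D4:**
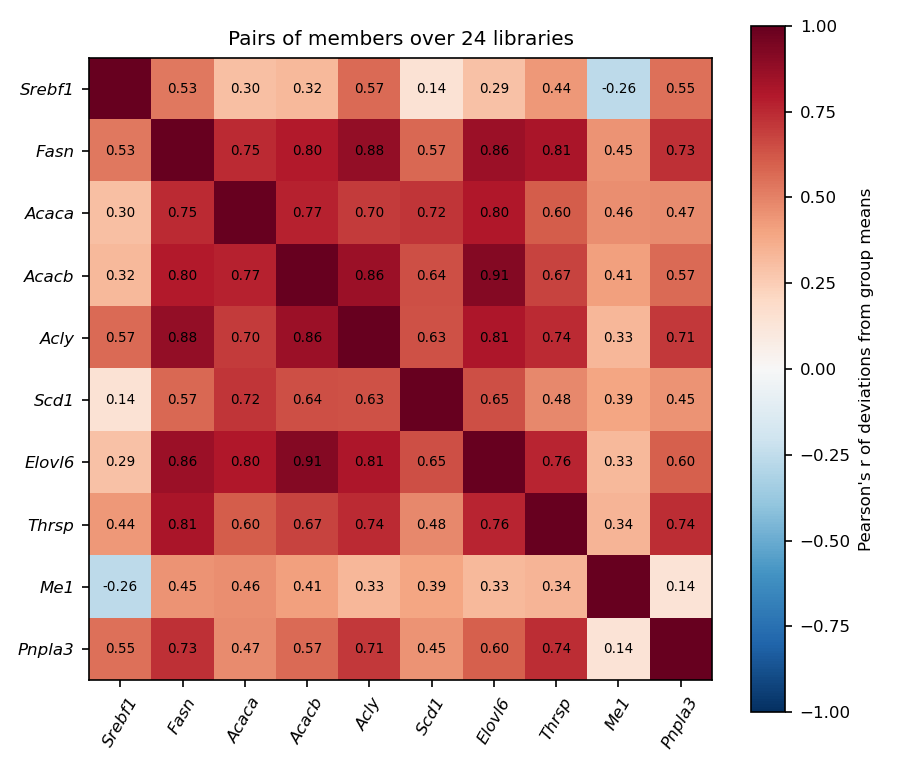
Pearson correlation between each pair of members over 24 libraries, after subtracting each group's mean log2 CPM. Fasn, Acaca, Acacb, Acly and Elovl6 form a block of 0.70 to 0.91, while the Srebf1 row runs from -0.26 (Me1) to 0.57 (Acly).

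Srebf1 was set against each of the 9 others, with permutation p-values adjusted over the 9 pairs. The correlation with Acly had Pearson's r = 0.57 (permutation adjusted p = 0.0413) and Spearman's rho = 0.40 (permutation adjusted p = 0.229). That with Pnpla3 had r = 0.55 (permutation adjusted p = 0.0413) and rho = 0.51 (permutation adjusted p = 0.151). That with Fasn had r = 0.53 (permutation adjusted p = 0.0413) and rho = 0.40 (permutation adjusted p = 0.229). Without the 2 libraries farthest in Srebf1, PBS replicate 6 and MDA-MB-231 EV replicate 6, r was 0.38, 0.36 and 0.32 for these genes, and none passed. In the 12 MCF10A EV and PBS libraries r was 0.27, 0.53 and 0.36, and in the 12 others 0.81, 0.58 and 0.70, again none past the threshold. Fewer libraries and a narrower spread of Srebf1 weaken a test, so these runs cannot show whether the 3 calls rested on those 2 libraries. For these 3 genes r stayed positive in each run. The other 6 pairs did not pass.

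In each group 1 library was lowest in more members than any other, and the same library had the highest Igfbp1 of its group. Igfbp1, a binding protein that insulin represses, is from the lists, and this pairing was noticed after its values were seen. MCF10A EV replicate 3 was lowest in 6 of 10 members, with Igfbp1 at 188 CPM (others 22.4 to 95.3). MCF10A/miR-122 EV replicate 3 was lowest in 9, with Igfbp1 at 723 CPM (others 19.4 to 325).

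MDA-MB-231 EV replicate 6 was also lowest in 9 members, with Igfbp1 at 239 CPM (others 57.3 to 144). PBS replicate 6 was lowest in 5, with Igfbp1 at 78.6 CPM (others 19.99 to 46.1). The pairing was not complete. PBS replicate 2 was lowest in 4 members with Igfbp1 at 25.3 CPM, and MCF10A EV replicate 6 in 3 with Igfbp1 at 79.7 CPM, neither the highest of its group. Pck1, which insulin also represses, was highest in 3 of the 4 libraries first named, but not in MDA-MB-231 EV replicate 6 (4276 CPM, others 3566 to 4446). The part of feeding in the members' values was not tested, as the labels give no feeding state.

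**Figure D5:**
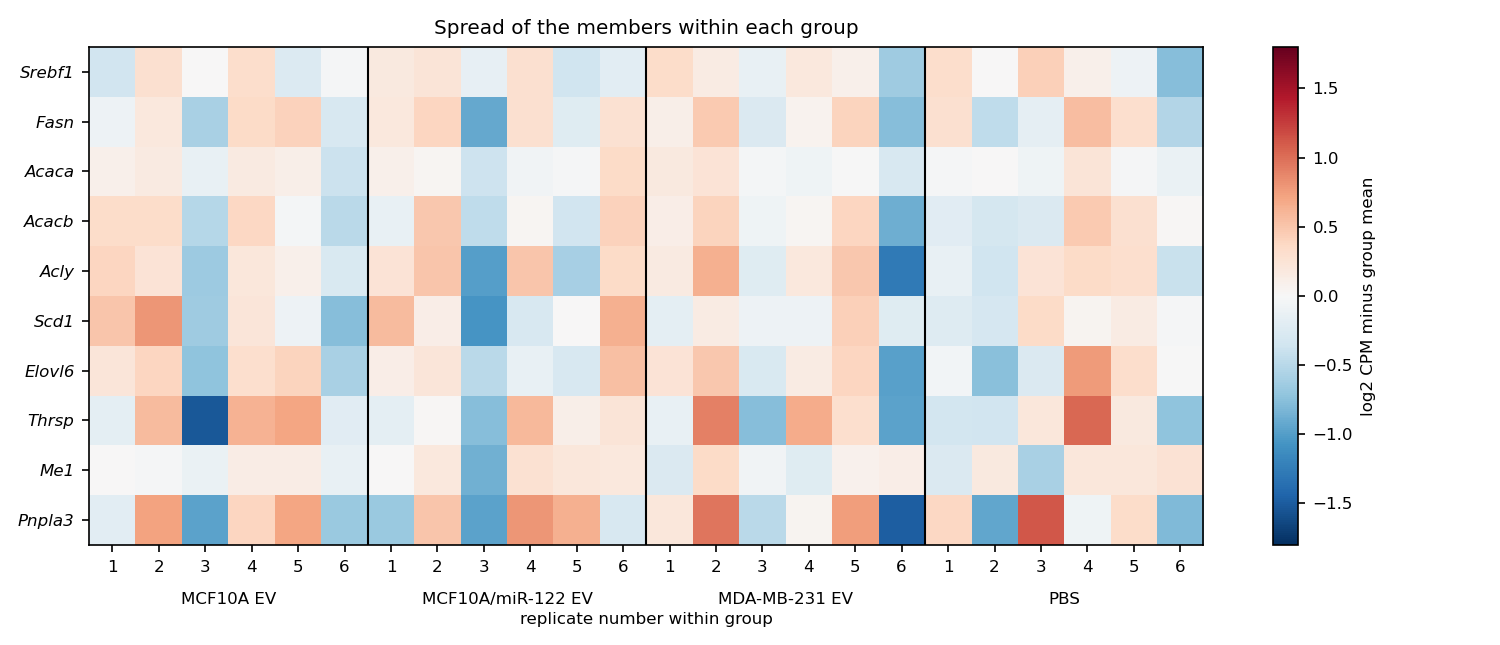
Deviation of each gene's log2 CPM from its group mean (colour) in each of 24 libraries (columns, by group and replicate number). Columns 3 of MCF10A/miR-122 EV, 6 of MDA-MB-231 EV, 3 and 6 of MCF10A EV, and 2 and 6 of PBS stand lowest, with a mean z-score over the 10 rows of -1.69 to -0.62, against at least -0.48 in the other columns.

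The genes whose within-group pattern was most like the mean of the members were ranked among 11178 genes that are not members. The first 2 were Acss2, an acetyl-CoA synthetase (r = 0.90), and Pgd, an NADPH-producing enzyme (r = 0.90), both from the supply list. Next came Chrna4 (0.89), Fam47e (0.88), Slc23a1 (0.88), Lss (0.88), Fdps (0.87), Ggt6, Paox and Sc5d (0.86 each). Lss, Fdps and Sc5d encode enzymes of cholesterol synthesis. The 5 most opposite were Rab30 (-0.87), Rad51l1 (-0.86), Mmd (-0.86), Ppp2r2d (-0.85) and Hsd17b6 (-0.84). Insig1 stood at place 41 (r = 0.80), Srebf2 at 404 (0.63) and Igfbp1 at 9999 (-0.44).

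Of the 6 SREBP processing genes, 1 was called in MCF10A/miR-122 EV over PBS. Insig2, a protein that retains the precursor, fell to 221 ± 29.8 CPM in MCF10A/miR-122 EV livers, against 322 ± 70.2 CPM in PBS livers (log2 fold change -0.55, edgeR adjusted p = 0.00436). Against MCF10A EV livers (395 ± 62.0 CPM) it also fell, by 0.84 in MCF10A/miR-122 EV (edgeR adjusted p = 7.12e-05) and by 0.68 in MDA-MB-231 EV (247 ± 26.2 CPM, edgeR adjusted p = 0.00143), with no overlap in either. Srebf2, Scap, Insig1, Mbtps1 and Mbtps2 were not called by edgeR in any of the 6 comparisons. Srebf2, the gene of the cholesterol-side SREBP, passed in MCF10A/miR-122 EV over PBS with DESeq2 (adjusted p = 0.0374) and limma-voom (adjusted p = 0.0403), against 0.0518 in edgeR. The list's median log2 fold change in MCF10A/miR-122 EV over PBS was -0.15, with 0 of 6 positive.

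Among 10 transcriptional partners, Usf1, an E-box factor of the Fasn promoter, was lower in all 4 comparisons across the sets, by 0.26 to 0.32 on the log2 scale. In MCF10A/miR-122 EV it averaged 17.2 ± 2.16 CPM, against 20.8 ± 2.08 CPM in PBS livers (edgeR adjusted p = 0.0232). The coactivator Ppargc1b rose in MCF10A/miR-122 EV over MCF10A EV (log2 fold change 0.80, edgeR adjusted p = 0.00431), and Pparg rose in MDA-MB-231 EV over MCF10A EV (0.52, edgeR adjusted p = 0.0432). Mlxipl, Mlx, Nr1h2, Nr1h3, Rxra, Usf2 and Nr0b2 were not called by edgeR in any comparison.

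The 11 genes of acetyl-CoA, glycolytic and NADPH supply had 0 calls in MCF10A/miR-122 EV over PBS by edgeR and 1 each by DESeq2 and limma-voom. At an unadjusted p under 0.05 there were 4 of 11, against 4328 of all 13773 genes tested. All 11 had positive log2 fold changes there (median 0.21). In MDA-MB-231 EV over PBS 2 rose: Slc25a1, the mitochondrial citrate carrier (log2 fold change 0.29, edgeR adjusted p = 0.0304), and Idh1, a cytosolic NADPH source (0.27, edgeR adjusted p = 0.0336). Of 10 elongation and desaturation genes, Elovl5 fell in MCF10A/miR-122 EV livers to 657 ± 89.5 CPM, against 852 ± 56.4 CPM in PBS livers (log2 fold change -0.37, edgeR adjusted p = 0.00222). Elovl1 fell by 0.33 in the same comparison (edgeR adjusted p = 0.0473), and Hsd17b12 rose by 0.20 in MDA-MB-231 EV over PBS (edgeR adjusted p = 0.0281). The list median was -0.22 in MCF10A/miR-122 EV over PBS, with 8 of 10 negative.

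Of 8 tested genes of acyl activation and glycerolipid assembly, 3 rose and 1 fell in MCF10A/miR-122 EV over PBS. Lpin1, a phosphatidate phosphatase, was at 498 ± 198 CPM in MCF10A/miR-122 EV and 399 ± 91.2 CPM in MDA-MB-231 EV livers, against 103 ± 92.4 CPM in PBS livers. The log2 fold changes were 2.27 (edgeR adjusted p = 5.39e-04) and 1.95 (edgeR adjusted p = 0.00297). In MCF10A EV livers, in the same set as PBS, Lpin1 was at 288 ± 115 CPM, a log2 fold change of 1.48 over PBS that missed the threshold in edgeR (adjusted p = 0.0657) and passed with DESeq2 (adjusted p = 0.0409) and limma-voom (adjusted p = 0.0424). Dgat2, which adds the last acyl chain of triglyceride, rose by 0.35 in MCF10A/miR-122 EV over PBS (edgeR adjusted p = 0.0019), and Dgat1, which catalyses the same step, by 0.23 (edgeR adjusted p = 0.0441). Acsl1, an acyl-CoA synthetase, fell by 0.48 there (edgeR adjusted p = 0.0143). Over MCF10A EV, Dgat2 rose and Agpat2, a lysophosphatidate acyltransferase, fell in MCF10A/miR-122 EV (0.42 and -0.50) and in MDA-MB-231 EV livers (0.26 and -0.59).

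Of the 6 regulators of acetyl-CoA carboxylase, Prkab1, a subunit of the inhibiting kinase AMPK, fell by 0.36 in MCF10A/miR-122 EV and by 0.52 in MDA-MB-231 EV over PBS (edgeR adjusted p = 0.0184 and 0.00205). In MCF10A EV livers, in the same set as PBS, Prkab1 was at 21.1 ± 2.09 CPM, against 27.5 ± 4.67 CPM in PBS livers. That difference missed the threshold in edgeR (adjusted p = 0.0653) and limma-voom (adjusted p = 0.0794) and passed with DESeq2 (adjusted p = 0.0223). Prkaa1, a catalytic subunit of AMPK, rose to 15.2 ± 1.09 CPM in MCF10A/miR-122 EV livers, against 13.3 ± 0.662 CPM in PBS livers (log2 fold change 0.20, edgeR adjusted p = 0.0344). Prkaa2, the other catalytic subunit, rose in MCF10A/miR-122 EV over MCF10A EV livers (log2 fold change 0.38, edgeR adjusted p = 0.00184).

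Of 9 genes of the fed and fasting state, 4 rose in MCF10A/miR-122 EV over PBS (Pck1, Igfbp1, Ppargc1a and Angptl4) and 3 in MDA-MB-231 EV over PBS (Pck1, Ppargc1a and Angptl4), and none fell. With limma-voom Igfbp1 missed the threshold in the first (adjusted p = 0.0795). In the second Ppargc1a missed it (adjusted p = 0.0884, against 0.0498 in edgeR) and G6pc passed (0.0395, against 0.0883 in edgeR). Igfbp1 averaged 219 ± 270 CPM in MCF10A/miR-122 EV livers, with replicate 3 at 723 CPM (others 19.4 to 325). In MCF10A EV over PBS, within 1 set of libraries, 1 of 9 rose. There 8 of 9 log2 fold changes were positive, with a median of 0.66. Over MCF10A EV, 0 of 9 rose in either group, and 2 fell in MCF10A/miR-122 EV. Pck1, a gluconeogenic enzyme, was at 4079 ± 797 CPM in MCF10A/miR-122 EV and 3967 ± 355 CPM in MDA-MB-231 EV livers, against 1644 ± 749 CPM in PBS livers (log2 fold changes 1.31 and 1.27, edgeR adjusted p = 0.00211 and 0.0041). In MCF10A EV livers Pck1 was at 2655 ± 1130 CPM. Of 9 clock genes, 2 rose (Per1 and Per2) and 2 fell (Arntl and Npas2) in MCF10A/miR-122 EV over PBS and the same in MDA-MB-231 EV over PBS. With limma-voom Npas2 missed the threshold in both (adjusted p = 0.0634 and 0.166). Its PBS level was low, with a median of 0.596 CPM and a highest value of 12.4 CPM. Per1 was at 72.3 ± 18.1 CPM in MCF10A/miR-122 EV and 59.0 ± 7.70 CPM in MDA-MB-231 EV livers, against 16.3 ± 14.8 CPM in PBS livers. Against MCF10A EV, 8 of 9 clock genes were called in each group, 5 higher and 3 lower in MCF10A/miR-122 EV (list median 1.01) and 6 higher and 2 lower in MDA-MB-231 EV (list median 0.90). In MCF10A EV over PBS Dbp and Per3 fell, by 2.43 and 2.05 on the log2 scale (edgeR adjusted p = 0.0251 and 0.0192). Neither passed there with limma-voom (adjusted p = 0.1 and 0.0779). The part of the hour of collection and of feeding in the members' values was not tested, since the labels give neither.

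Macrophage markers moved with the MCF10A/miR-122 EV group: 3 of 5 rose over PBS, and their sum was 198 to 493 CPM in MCF10A/miR-122 EV, 141 to 219.7 CPM in MDA-MB-231 EV, 162 to 199.5 CPM in MCF10A EV and 179.8 to 233 CPM in PBS libraries. With limma-voom 2 of 5 were called over PBS. The rise was uneven: Cd5l was at 155 CPM in MCF10A/miR-122 EV replicate 3. In replicates 4 and 5 it was at 54.3 and 57.5 CPM, within the PBS range of 45.3 to 67.2 CPM. The part of these markers in the result was not tested. Of the other marker lists, 1 of 6 hepatocyte markers rose in MCF10A/miR-122 EV over PBS and 1 in MDA-MB-231 EV over PBS, and no endothelial, stellate, cholangiocyte, pancreatic acinar or adipocyte marker was called by edgeR in the comparisons of EV groups with PBS. In bulk liver, fewer cells of a type and less RNA per cell cannot be told apart.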

How the data were processed

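Liver RNA of 24 libraries was sequenced from stranded mRNA libraries, per the labels. What the authors deposited is 1 table of whole-number read counts by gene symbol, not normalized. The submitters' processing notes name bcl2fastq 2.18.0.12, TopHat2 and the mouse build mm9. How reads were assigned to genes, with which annotation and strand setting, and what was done with multi-mapping reads, is not given in the sources used here, so genes with copies or overlapping partners are named as uncertain.

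Libraries were grouped by the treatment label. The 27 rows that share 11 symbols (0.0744% of counts) were left out. A single edgeR model (4.0.16, under R 4.3.3) took all 24 libraries with group means, TMM factors and genes kept by filterByExpr, and gave quasi-likelihood F tests. These were two-sided, adjusted by Benjamini-Hochberg over the 13773 genes tested, with a threshold of 0.05, and "called", "rose" and "fell" refer to it. Standard errors come from the F statistic, and 95% intervals from them with 20 residual degrees of freedom. CPM are on TMM-scaled library sizes, and log2 CPM used a prior count of 2. The common biological coefficient of variation was 16.8%. The fit was tested on simulated data.

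The members and the lists of pathway and marker genes were chosen with earlier results of these data known. In the text, all 10 members are named, with a selection of the list genes past the threshold, mostly from the comparisons with PBS and made after their values were seen, and the 10 genes most like and the 5 least like the mean of the members (mean z-score of within-group deviations, Pearson correlation over 24 libraries, mean log2 CPM of at least 1). Mpc1 and Mpc2 were found under older symbols. Correlations of Srebf1 used 100000 permutations within groups. Alternatives were DESeq2 1.42.0, limma-voom (limma 3.58.1), RLE size factors, no filter and a strict filter, the 12 libraries compared alone, a replicate block, identities from the library names, and leaving out each library. Shared 32-mers and overlaps are from GENCODE M21 and promoters from RefSeq, both on GRCm38, and were used for names and sequence only. Results for some genes are not reported here.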

Additional observations from a re-analysis of the deposited data

Results flagged for a closer look

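Acaca in PBS replicate 4, at 102 CPM, stood apart from the other PBS libraries, at 79.5 to 86.8 CPM. Me1 in MCF10A/miR-122 EV replicate 3, at 116 CPM, stood apart from the other libraries of its group, at 212 to 254 CPM. These were 2 of the 40 gene and group combinations examined for a sample far from the rest, and chance flags about 1 in 20.

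The effects over PBS differed between groups for Srebf1 and Thrsp, by the direct comparison of the groups in edgeR. For Srebf1 the difference between the effects of MCF10A/miR-122 EV and MCF10A EV was 0.69 on the log2 scale. For Thrsp it was 1.96 between MCF10A/miR-122 EV and MCF10A EV and 1.57 between MDA-MB-231 EV and MCF10A EV. All 3 cross the 2 sets of libraries, which cannot be told apart from the treatment.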

How the results depend on the processing

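The 4 Thrsp calls across the sets held under each alternative run, and with each library left out their log2 fold changes were 1.36 to 2.32. Of 40 tracked fold changes, 40 kept direction and side of the threshold with limma-voom, RLE size factors, either filter and only the 12 libraries compared, and 38 with DESeq2. DESeq2 called 414 genes in MCF10A EV over PBS and 98 in MDA-MB-231 EV set against MCF10A/miR-122 EV, against 147 and 35 in edgeR. With only the 12 libraries compared these counts were 27 and 23 (fewer samples), and with 1 library left out 26 to 741 and 13 to 82. The cause was not tested for the other shifts. DESeq2 called 2 members in MDA-MB-231 EV over MCF10A EV, Pnpla3 being added, and added Acaca in MCF10A/miR-122 EV over MCF10A EV (0.31, adjusted p = 0.0394, against 0.064 in edgeR).

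With identities from the library names the 2 groups change places by construction. MCF10A/miR-122 EV over PBS then had 1 member and 1607 genes called, and MDA-MB-231 EV over PBS 2 members and 2463 genes. Over MCF10A EV, MCF10A/miR-122 EV had 1 member and 1058 genes and MDA-MB-231 EV 2 members and 2237 genes. Srebf1 and Scd1 became -0.22 and -0.084 in MCF10A/miR-122 EV over PBS, and 0.17 and 0.30 in MDA-MB-231 EV over PBS. In MDA-MB-231 EV set against MCF10A/miR-122 EV, Srebf1 and Thrsp became 0.39 each and Pnpla3 -0.27.

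With 1 library left out, members called were 0 to 1 in MCF10A EV over PBS (Srebf1 without PBS replicate 6), 1 to 4 in MCF10A/miR-122 EV over PBS, 1 to 2 in MDA-MB-231 EV over PBS, and over MCF10A EV 2 to 4 in MCF10A/miR-122 EV and 1 to 2 in MDA-MB-231 EV. The highest counts, 4 members in both comparisons, came without MCF10A/miR-122 EV replicate 3, and the count of 1 in MCF10A/miR-122 EV over PBS without its replicate 6. Both counts of 2 came without MDA-MB-231 EV replicate 6. In MCF10A EV over PBS the log2 fold changes ranged over 0: Scd1 -0.23 to 0.083, Elovl6 -0.066 to 0.23 and Thrsp -0.064 to 0.35.

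Same-numbered libraries correlated at -0.43 to 0.37 in 36 pairs, 13 of them over 0.1. Libraries of unlike number were not compared in this way, so a pairing by replicate number was not tested. With the replicate block, MDA-MB-231 EV over MCF10A EV had 2 members called (Pnpla3, edgeR adjusted p = 0.0457), Fasn passed in MCF10A/miR-122 EV over PBS (edgeR adjusted p = 0.0378), and Thrsp in MCF10A EV over PBS was -0.0027.

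For Srebf1, correlations without the 2 farthest libraries, in the 12 MCF10A EV and PBS libraries and in the 12 others were 0.32, 0.36 and 0.70 with Fasn, 0.38, 0.27 and 0.81 with Acly, and 0.36, 0.53 and 0.58 with Pnpla3 (fewer samples). Acacb was -0.050 and Elovl6 -0.021 in the first 12, but 0.69 and 0.68 in the 12 others, and Me1 was -0.58 and 0.0011 in these sets. Depth limits Pnpla3 most, with 63 counts at the lowest.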
